A study of Mus musculus with 4 samples.

Results

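Interferon-stimulated genes are the transcripts that cells switch on after interferon binds its receptors. A list of 37 such symbols, chosen with earlier results of these data known, is described here in lineage-negative (Lin–) bone marrow cells. All 37 were among the 16673 genes of the table. RNA came from Lin– cells, the marrow fraction depleted of mature blood cells, of 2-month-old mice. 2 mice were Tet3F/F, carrying Tet3 alleles flanked by loxP sites without Cre (control), and 2 were Tie2+/cre; Tet3F/F (cKO), carrying those alleles with Cre driven by Tie2. TET3 is an enzyme that oxidises 5-methylcytosine in DNA, and Tie2 is active in endothelial cells and in the early blood cells that give rise to marrow cells. Each of the 4 mice gave 1 library, with 28845037 to 46673855 reads counted to genes. Values are normalized counts (reads divided by a size factor of the library), and a log2 fold change is the difference of group means of log2(normalized count + 1), positive where cKO was higher, with its standard error (SE).

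Some facts of the whole series bear on every value below. Tet3 itself had 5056 and 6593 normalized counts in the control libraries and 6400 and 5084 in the cKO libraries. A count over the whole gene holds exons outside any deleted part, so it checks neither the genotype nor the labels, and each group is named below as it is labelled. Xist had 5.54 and 9.57 normalized counts in the control libraries and 87442 and 48951 in the cKO libraries, and the Y-linked Ddx3y, Eif2s3y, Kdm5d and Uty had 0 reads in both cKO libraries. Sex and genotype therefore cannot be told apart in any comparison here, although none of the 37 genes is on X or Y. Control replicate 2 stood apart: mitochondrial genes took 8.21% of its reads against 0.993% to 1.27% in the other libraries. The 6 progenitor markers (Kit, Cd34, Flt3, Gata2, Myb and Cebpa) summed to 61860.5 and 56841 normalized counts in the control libraries. Their sums were 68168 and 64285 in the cKO libraries. In 3 of the 6 both cKO libraries lay above both control libraries (19.2% of all genes), and in 0 below (19.5%). Progenitor transcripts were thus present in all, which does not check the depletion of mature cells. Transcripts of mature cells remained, with none of the 12 T and NK cell markers at 0 in any library. In RNA from a mixed fraction, fewer cells of a type and less RNA per cell cannot be told apart.

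Type I interferons signal through the receptor chains IFNAR1 and IFNAR2 and the kinases JAK1 and TYK2 to a transcription factor complex that holds STAT2 and IRF9 and binds the interferon-stimulated response element (ISRE) in the promoters of antiviral genes. Interferon-gamma signals through its own receptor to the gamma-activated site (GAS) in promoters and induces IRF1, GTPases that attack vacuoles holding pathogens, and the machinery that cuts and loads peptides onto MHC class I. In the marrow, interferon is known to drive resting stem cells into cycle, and plasmacytoid dendritic cells and NK and T cells are known sources of type I and gamma interferon. By this division 29 of the genes were placed in an antiviral type I class and 7 in an interferon-gamma GTPase and antigen-processing class, and Irf1, which both interferon types induce, was kept in neither.

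Promoter sequences are shown first because the ISRE is the letter pattern that type I signalling reads, and the stretches printed belong to genes whose values are compared below. RefSeq promoter sequences (build GRCm38.p6, a build other than that of the reads) matched 30 of the 37 symbols. They cover 250 bases before to 50 bases after each annotated start. The ISRE was searched as GAAANNGAAA and the GAS as TTCNNNGAA, on both strands, with overlapping matches allowed. An ISRE match was present for 13 of the 30 genes (43.3%), against 3.84% of 11236 tested genes with a promoter in the same table. A GAS match was present for 9 of the 30 (30.0%), against 8.32%. By class, 10 of 22 antiviral genes and 3 of 7 GTPase and antigen-processing genes held an ISRE, and 6 of 22 and 2 of 7 held a GAS. A match is a description of the letters and not of binding. The 200 bases before the start are given 5′ to 3′ for 7 genes, with ISRE matches in capitals.
Ifit1, chr19:34640689-34640888, plus strand: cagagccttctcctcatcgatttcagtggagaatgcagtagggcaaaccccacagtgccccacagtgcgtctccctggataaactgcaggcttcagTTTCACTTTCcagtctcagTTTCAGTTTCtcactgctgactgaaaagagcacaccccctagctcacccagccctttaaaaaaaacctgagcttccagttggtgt
Ifit3, chr19:34583329-34583528, plus strand: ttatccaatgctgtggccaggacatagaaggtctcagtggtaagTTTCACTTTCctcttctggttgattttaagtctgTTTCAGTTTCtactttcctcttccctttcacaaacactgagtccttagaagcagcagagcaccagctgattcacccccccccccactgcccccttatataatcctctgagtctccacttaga
Isg15, chr4:156200819-156201018, minus strand: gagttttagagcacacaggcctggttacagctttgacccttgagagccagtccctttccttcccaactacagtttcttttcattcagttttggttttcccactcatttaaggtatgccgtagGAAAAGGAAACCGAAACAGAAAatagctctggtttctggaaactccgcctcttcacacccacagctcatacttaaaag
Rsad2, chr12:26456453-26456652, minus strand: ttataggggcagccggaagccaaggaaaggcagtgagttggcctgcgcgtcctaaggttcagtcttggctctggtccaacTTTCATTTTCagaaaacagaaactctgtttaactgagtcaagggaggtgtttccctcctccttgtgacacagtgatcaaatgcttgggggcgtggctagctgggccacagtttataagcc
Oas1a, chr5:120907526-120907725, minus strand: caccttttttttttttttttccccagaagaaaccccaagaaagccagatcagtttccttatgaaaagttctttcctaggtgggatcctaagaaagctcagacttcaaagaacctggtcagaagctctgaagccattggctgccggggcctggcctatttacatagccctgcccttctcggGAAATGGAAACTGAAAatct
Oas3, chr5:120777660-120777859, minus strand: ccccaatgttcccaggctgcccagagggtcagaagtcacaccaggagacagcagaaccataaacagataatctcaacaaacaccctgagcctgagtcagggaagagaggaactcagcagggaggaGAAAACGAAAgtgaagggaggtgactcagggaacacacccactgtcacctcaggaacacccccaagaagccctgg
Irgm1, chr11:48871421-48871620, minus strand: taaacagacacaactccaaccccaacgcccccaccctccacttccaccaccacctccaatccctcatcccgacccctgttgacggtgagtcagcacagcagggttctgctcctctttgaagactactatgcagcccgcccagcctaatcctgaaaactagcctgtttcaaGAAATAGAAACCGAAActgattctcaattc
Isg15 carries 3 overlapping matches in 1 run, and Oas1a and Irgm1 each carry 2. Ifit1 and Ifit3, neighbours on chromosome 19, each carry a pair of separate matches with the same letters in the same order.

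No difference between cKO and control was detected for any of the 37 genes. limma with Benjamini-Hochberg adjustment over 16598 genes called 0 of them at an adjusted p under 0.05, against a background of 0.0723% of all genes (0.0301% higher and 0.0422% lower in cKO), and the smallest adjusted p was 0.76. Unadjusted p-values under 0.05 were found for 1 of the 37 (Dtx3l), against 6.1% of all genes (3.49% higher and 2.61% lower). edgeR also called 0, with 1 unadjusted p under 0.05, against 0.0723% and 6.13% of all genes. DESeq2 called 0, with 1 unadjusted p under 0.05 (Samd9l), against 0.702% and 7.24%. The log2 fold changes ran from -0.59 for Zbp1 to 0.76 for Ifit3, with 18 above 0 and 19 below (50.8% of all genes were above 0). Their median was -0.01, beside 0.01 over all genes tested. No member reached a fold of 2, which 10.8% of all genes did, and 4.5% of the 12467 genes with a mean at or above that of the lowest member. The 95% interval of the difference stayed within 1 log2 unit on both sides for 25 of the 37, so a larger difference was not excluded for the other 12. An exact permutation test of 2 libraries against 2 cannot give a p below 0.33, so the test rests on the spread pooled across genes. Whether the mice were littermates is not stated.

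**Figure D1:**
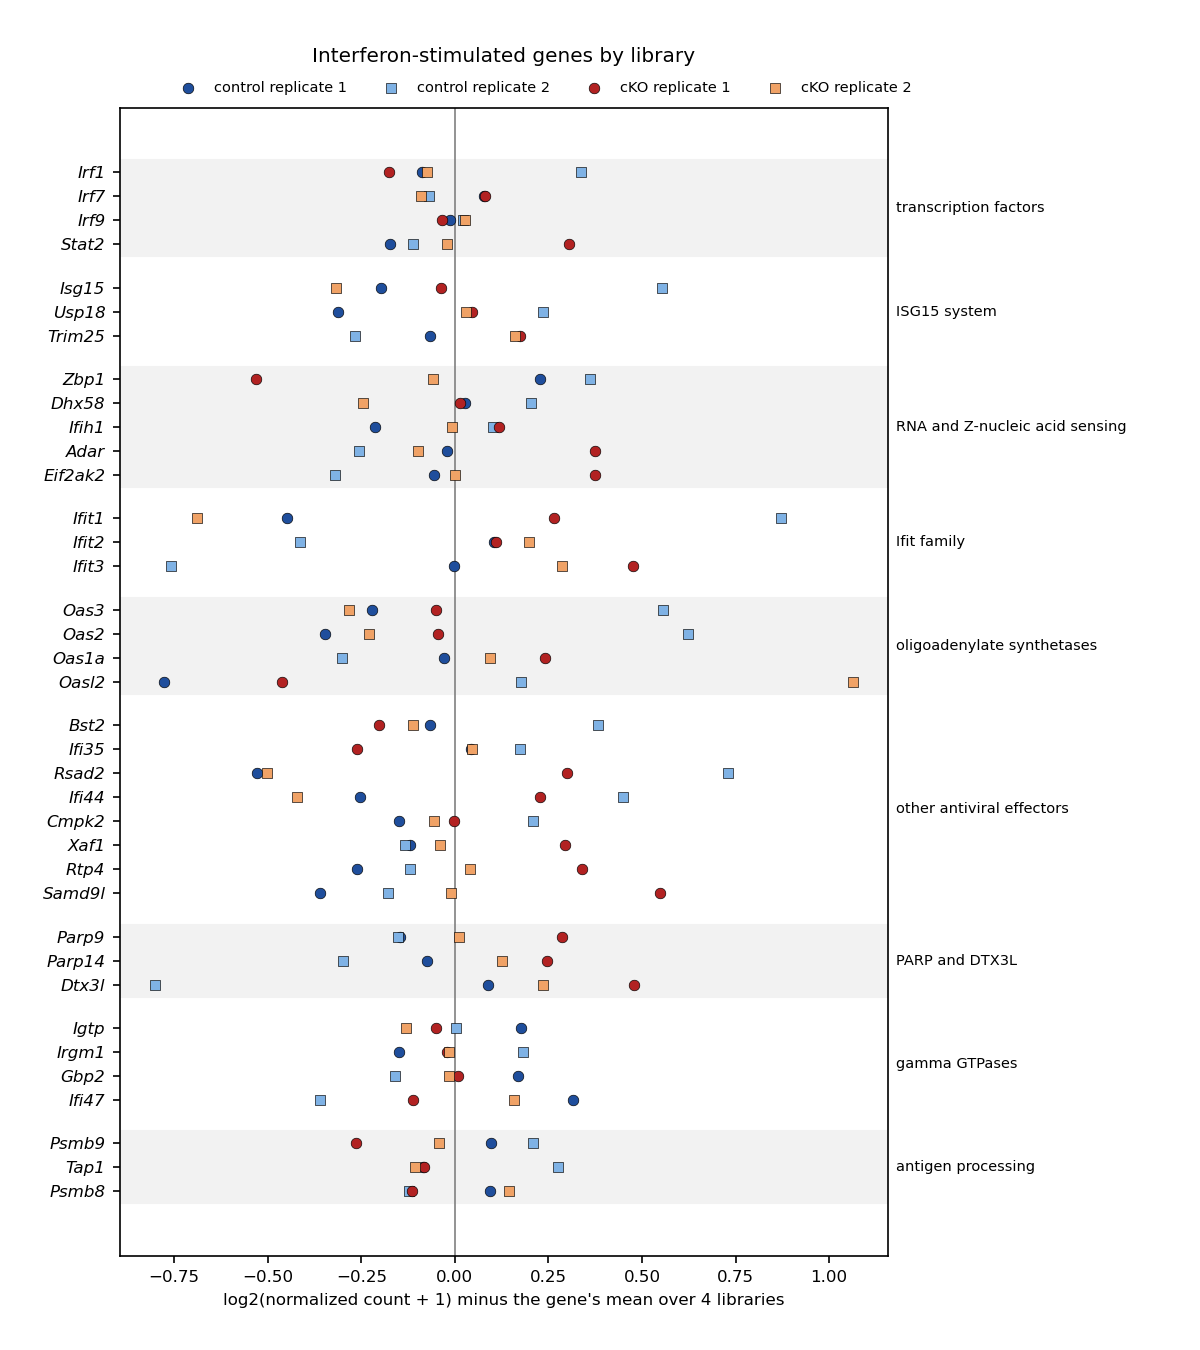
Each point is 1 library; the horizontal axis is log2(normalized count + 1) minus the gene's mean over the 4 libraries, and genes are grouped by role. Isg15, Ifit1, Oas2, Oas3, Rsad2 and Ifi44 are highest in control replicate 2, while Parp14 and Dtx3l are lowest there and have both cKO libraries above both control libraries.

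The genes did not all point one way. In 12 of the 37 both cKO libraries lay above both control libraries (19.2% of all genes did so), and in 5 both lay below (19.5% of all genes). The 12 were Stat2, Trim25, Eif2ak2, Ifit2, Ifit3, Oas1a, Rtp4, Xaf1, Samd9l, Parp9, Parp14 and Dtx3l, with folds from 1.19 to 1.70. cKO replicate 1 was the highest library for 11 of the 12, and control replicate 2 the lowest for 9. Without cKO replicate 1 the log2 fold change of Stat2 was 0.12 in place of 0.29, and that of Eif2ak2 was 0.19 in place of 0.37. The 5 were Dhx58, Zbp1, Bst2, Igtp and Psmb9. The 4 stromal markers summed to 20679 and 19053 normalized counts in the control libraries and 4496 and 8852 in the cKO libraries, with none at 0, and their part in the lower values was not tested. For 21 of the 37 the 2 control mice differed from each other by more than the 2 groups did, as was so for 63.3% of all genes.

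**Figure D2:**
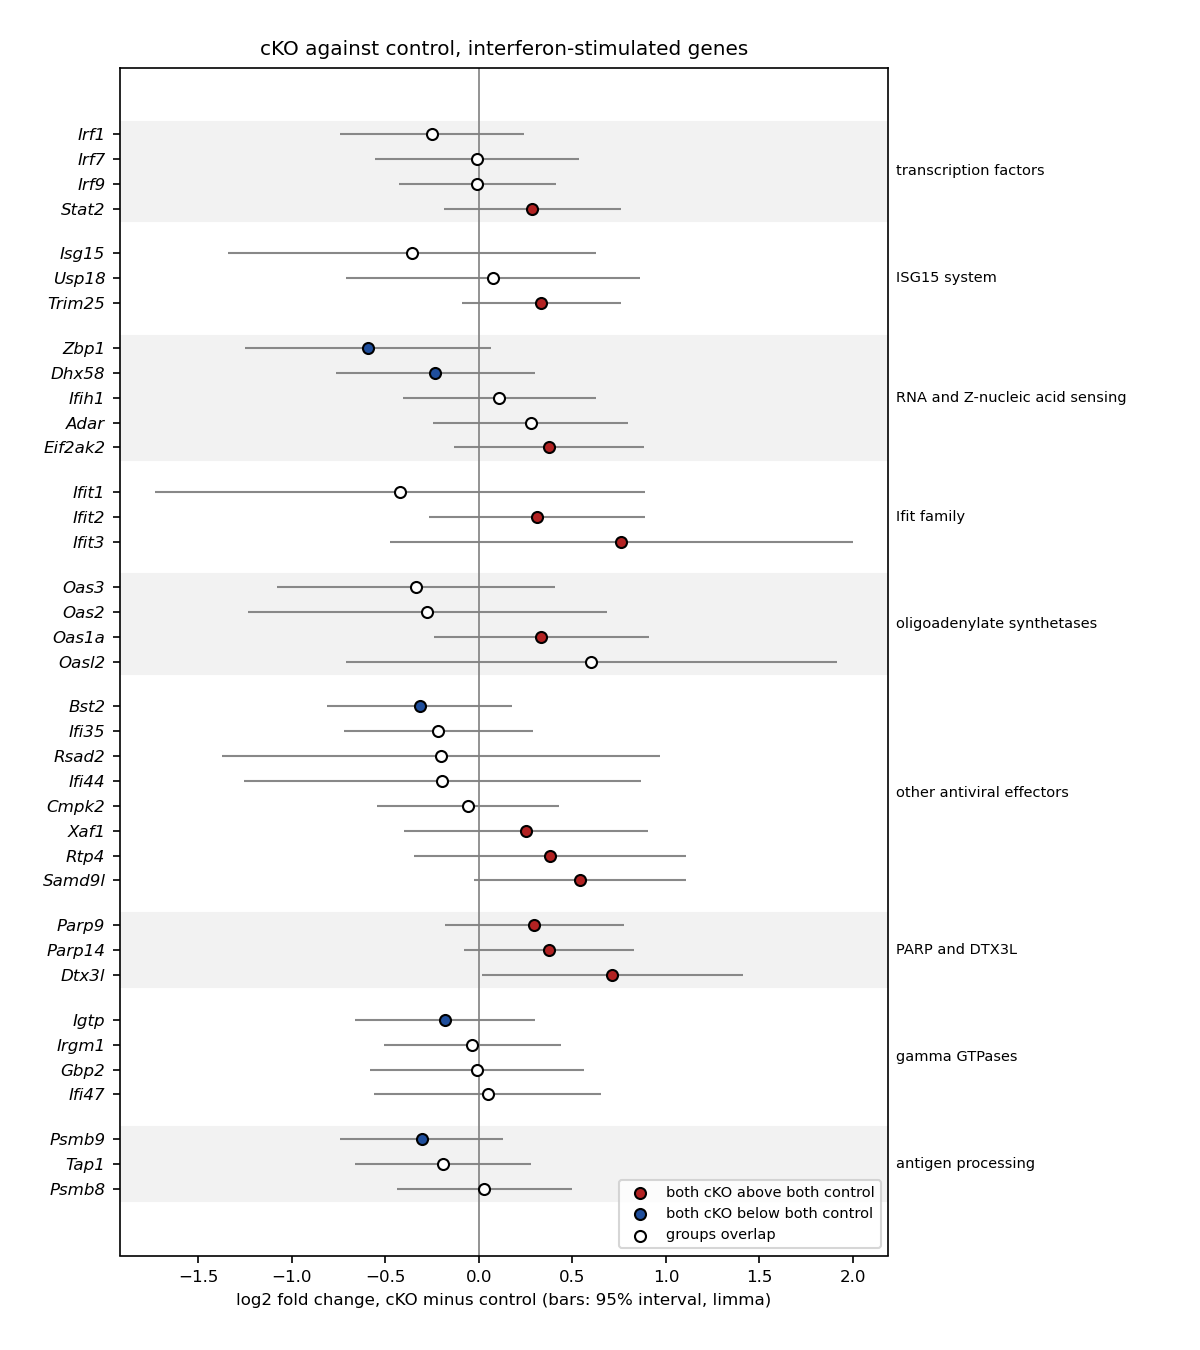
Points are log2 fold changes, cKO minus control, and bars are limma's 95% intervals, by role; filled points mark genes whose groups do not overlap. All intervals except that of Dtx3l (0.02 to 1.41) include 0, and the widest belong to low genes such as Ifit1 (-1.73 to 0.89) and Ifit3 (-0.48 to 2.00).

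Among the transcription factors that carry the signal, Irf9, the DNA-binding subunit of the type I complex, was the steadiest. It had 2571 and 2634 normalized counts in the control libraries and 2533 and 2643 in the cKO libraries (log2 fold change -0.01, SE 0.18), and its highest library was 1.04 times its lowest. Irf7, which amplifies type I interferon production, had 690 and 622 against 691 and 613 (-0.01, SE 0.23). These levels show 2 factors whose groups overlapped fully. Stat2, the partner of IRF9, had 1745 and 1823 in the control libraries and 2434 and 1942 in the cKO libraries (0.29, SE 0.20), so that its groups did not overlap and cKO replicate 1 was high. Irf1, induced by both interferon types, had 2497 and 3350 against 2348 and 2519 (-0.25, SE 0.21), with control replicate 2 high and the other 3 libraries close together. Adjusted p-values for the 4 factors ran from 0.77 to 0.99 with limma.

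Isg15 encodes a ubiquitin-like protein that is attached to other proteins in the antiviral state. It had 120 and 203 normalized counts in the control libraries and 134 and 110 in the cKO libraries (log2 fold change -0.36, SE 0.42), and control replicate 2 alone was high. Usp18, which removes ISG15 and damps the type I receptor, had 191 and 280 against 245 and 242 (0.08, SE 0.34). Its cKO libraries both lay between the control libraries. Trim25, a ubiquitin ligase that assists RNA sensing and is itself interferon-induced, had 4142 and 3606 against 4901 and 4849 (0.33, SE 0.18). Its cKO libraries were close together and both lay above the controls, but its adjusted p was 0.76 with limma.

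The sensors of foreign or Z-form nucleic acid split by direction. Zbp1, which senses Z-form nucleic acid and triggers cell death, had 517 and 567 normalized counts in the control libraries and 305 and 424 in the cKO libraries (log2 fold change -0.59, SE 0.28; limma adjusted p 0.76). Both cKO libraries were low, and this was the lowest fold change of the 37, at -0.35 without cKO replicate 1. Dhx58, a regulator of RNA sensing, had 832 and 940 against 824 and 688 (-0.23, SE 0.23), its control replicate 1 and cKO replicate 1 nearly equal. Eif2ak2, the kinase PKR that halts translation on double-stranded RNA, had 1996 and 1662 against 2691 and 2074 (0.37, SE 0.22), with both cKO libraries above. Adar, which edits double-stranded RNA so that it escapes sensing, had 3014 and 2560 against 3968 and 2858 (0.28, SE 0.22). Its groups overlapped, since only cKO replicate 1 was high. Ifih1, the RNA sensor MDA5, had 893 and 1111 against 1123 and 1029 (0.11, SE 0.22), its groups overlapping.

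The Ifit genes, whose proteins bind viral RNA or restrict its translation, are neighbours on chromosome 19. Ifit1 had 97.9 and 246 normalized counts in the control libraries and 161 and 82.7 in the cKO libraries (log2 fold change -0.42, SE 0.56). It was highest in control replicate 2 and lowest in cKO replicate 2, and the former was 2.97 times the latter. This is uncertain, because reads may be shared with Ifit1bl1: the sum of both was 146 and 260 against 341 and 234, which turned the log2 fold change to 0.53 and made cKO replicate 1 the highest library. Ifit3 had 60.0 and 35.1 against 84.1 and 73.5 (0.76, SE 0.53), so control replicate 2, the highest library for Ifit1, was the lowest for Ifit3 by each gene's own count. Ifit2 had 1020 and 712 against 1024 and 1089 (0.31, SE 0.25), and again control replicate 2 alone was low. The folds of Ifit2 and Ifit3 shrank to 0.05 and 0.38 without control replicate 2. Ifit3 is uncertain, because the close copy Ifit3b can share its reads: Ifit3b had 9.23 and 23.9 against 18.7 and 6.89. Their sums were 69.2 and 59.0 in the control libraries and 103 and 80.4 in the cKO libraries. Ifit3 also rested on the fewest reads of the 37 genes, 44 in control replicate 2.

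The oligoadenylate synthetases make the second messenger that activates RNase L. Oas2 had 159 and 312 normalized counts in the control libraries and 196 and 172 in the cKO libraries (log2 fold change -0.27, SE 0.41), and Oas3 had 445 and 764 against 501 and 426 (-0.34, SE 0.32). In both, control replicate 2 was high and the other 3 libraries close. Oas1a, on the same stretch of chromosome 5, had 570 and 471 against 688 and 620 (0.33, SE 0.25), so that control replicate 2 was its lowest library. Its close copy Oas1g, at 39.7 and 43.9 against 94.6 and 62.0, may share its reads, and their sum was 609 and 515 against 782 and 682. Oasl2, an oligoadenylate synthetase-like gene, had 126 and 244 against 156 and 453 (0.60, SE 0.56). A single library, cKO replicate 2, set that fold: without it the log2 fold change was -0.16. Adjusted p-values of the 4 genes ran from 0.77 to 0.88 with limma.

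The remaining antiviral effectors held both kinds of pattern. Samd9l, a restriction factor and brake on blood cell growth, had 1222 and 1387 normalized counts in the control libraries and 2297 and 1560 in the cKO libraries (log2 fold change 0.54, SE 0.24; limma adjusted p 0.76). Both cKO libraries lay above, cKO replicate 1 by far the more, and without that library the log2 fold change was 0.26. Bst2, tetherin, which holds budding virus at the cell surface and also marks plasmacytoid dendritic cells, had 3439 and 4698 against 3127 and 3334 (-0.32, SE 0.21), and without control replicate 2 its fold change was -0.09. Rtp4 had 207 and 228 against 314 and 255 (0.38, SE 0.31), and Xaf1, a promoter of apoptosis, 336 and 333 against 448 and 355 (0.25, SE 0.28). For these 2 genes the groups did not overlap. Rsad2, viperin, which blocks viral replication with a modified nucleotide, had 142 and 341 against 253 and 145 (-0.20, SE 0.50). Its neighbour Cmpk2, a mitochondrial nucleotide kinase, had 1570 and 2015 against 1738 and 1676 (-0.06, SE 0.21). Control replicate 2 was the highest library of both. Ifi44 had 103 and 169 against 145 and 91.9 (-0.20, SE 0.45), and Ifi35 had 1183 and 1294 against 956 and 1184 (-0.22, SE 0.22), both with overlapping groups.

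Parp9, Parp14 and Dtx3l, which lie side by side on chromosome 16, were the only role group in which every gene had both cKO libraries above both control libraries. PARP9 and the ubiquitin ligase DTX3L act as a pair in interferon and DNA damage responses, and PARP14 is an ADP-ribosyltransferase of the same family. Dtx3l had 2447 and 1320 normalized counts in the control libraries and 3208 and 2710 in the cKO libraries (log2 fold change 0.71, SE 0.30, unadjusted p 0.046, adjusted p 0.76 with limma). Parp14 had 1860 and 1590 against 2323 and 2138 (0.37, SE 0.20), and Parp9 had 1233 and 1228 against 1664 and 1376 (0.30, SE 0.21; limma adjusted p 0.77). The low value of Dtx3l in control replicate 2 was not shared by Parp9, whose control libraries were nearly equal. Dtx3l had its largest log2 fold change, 1.16, without control replicate 1, when control replicate 2 was the only control. Without control replicate 2 its log2 fold change was 0.27.

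The interferon-gamma GTPases, which coat vacuoles and help clear pathogens inside cells, had log2 fold changes from -0.18 to 0.05 in the 4 genes of the list. The 11 other GTPases of the pathway list had a median of 0.19, with both cKO libraries above in 5 (19.2% of all genes) and below in 0 (19.5%). Gbp2 had 687 and 547 normalized counts in the control libraries and 615 and 604 in the cKO libraries (log2 fold change -0.01, SE 0.24), and Irgm1 had 1716 and 2159 against 1876 and 1883 (-0.03, SE 0.20). In both, the cKO libraries lay between the control libraries. Ifi47 had 3289 and 2058 against 2446 and 2951 (0.05, SE 0.26), again with the control libraries at both ends. Igtp had 1231 and 1091 against 1051 and 995 (-0.18, SE 0.21), the only one of the 4 whose groups did not overlap. Adjusted p-values ran from 0.84 to 0.99 with limma.

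Antigen processing was represented by 2 immunoproteasome subunits and a peptide transporter. Psmb9 had 4795 and 5180 normalized counts in the control libraries and 3734 and 4350 in the cKO libraries (log2 fold change -0.31, SE 0.19; limma adjusted p 0.76), and both cKO libraries were low. Tap1, a subunit of the transporter that carries peptides into the endoplasmic reticulum, had 8042 and 10314 against 8043 and 7914 (-0.19, SE 0.20), and control replicate 2 alone was high. Psmb9 and Tap1 are transcribed in opposite directions from neighbouring starts, with 275 of the 300 bases of their promoter stretches shared. Control replicate 2 was the highest library of both, but only Psmb9 had groups that did not overlap. Psmb8, the other immunoproteasome subunit, had 10365 and 8923 against 8972 and 10729 (0.03, SE 0.20), with overlapping groups.

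The antiviral class and the GTPase and antigen-processing class were compared by description only, and in the class difference by library the groups overlapped. The median log2 fold change was 0.11 over the 29 antiviral genes (16 above 0, 12 with both cKO libraries above and 3 with both below, beside 50.8%, 19.2% and 19.5% of all genes). It was -0.03 over the 7 GTPase and antigen-processing genes (2 above 0, 0 with both cKO libraries above and 2 with both below). By library, the median of the antiviral genes after centring each gene on its own mean was -0.12 and 0.02 in control replicates 1 and 2 and 0.18 and -0.01 in cKO replicates 1 and 2. For the GTPase and antigen-processing genes it was 0.10 and 0.00 against -0.08 and -0.02. The second class minus the first was therefore 0.22 and -0.02 in the control libraries and -0.26 and -0.01 in the cKO libraries. Control replicate 1 and cKO replicate 1 stood at the ends with the other 2 libraries between them, and the groups overlapped. The SD of this quantity between replicates was 0.18 in the cKO group, the group in which it was larger. The difference of the class medians of log2 fold change was -0.14 with all libraries. It ran from -0.41 without control replicate 2 to -0.08 without cKO replicate 1. This measure is not the by-library one, so that SD does not apply to it. In the other genes of the pathway list the antiviral median was not the higher throughout. The 39 other antiviral genes had a median log2 fold change of -0.03, with both cKO libraries above in 12 and below in 6. The 11 other GTPases had 0.19, with 5 above and 0 below. The 12 other antigen-processing genes had -0.15, with 0 above and 5 below. A higher antiviral median is thus not shown as a trait of the classes beyond the genes chosen here. The class comparison is a description of chosen genes, with no test.

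**Figure D3:**
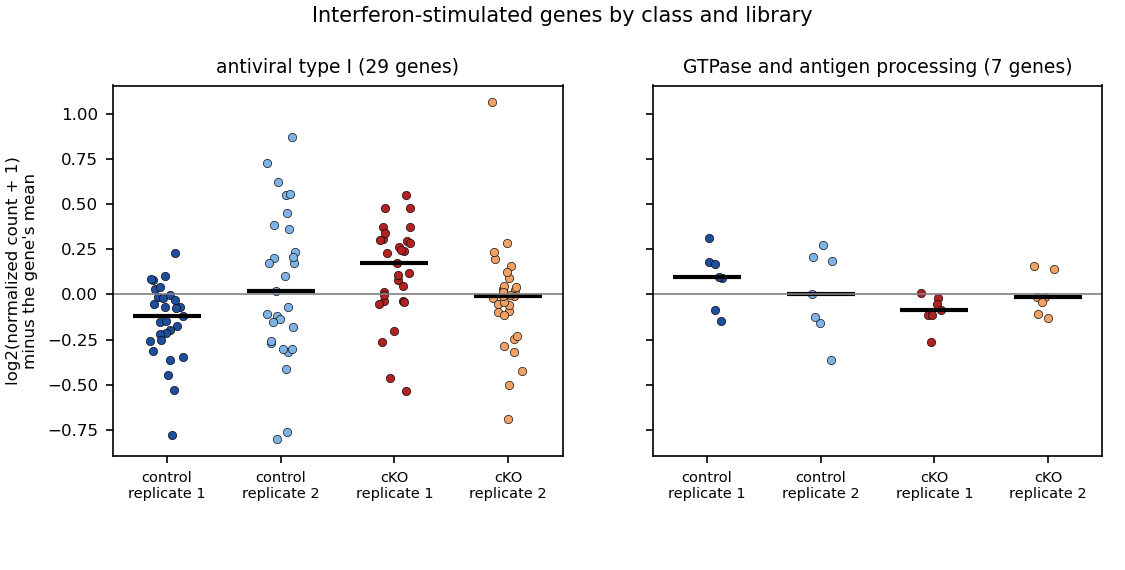
Each point is a gene, with the vertical axis giving log2(normalized count + 1) minus the gene's mean over 4 libraries, and black lines are medians over the class. The antiviral median is highest in cKO replicate 1 (0.18) and lowest in control replicate 1 (-0.12), while that of the 7 GTPase and antigen-processing genes is highest in control replicate 1 (0.10).

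The mice within a group differed from each other in several antiviral genes. In Isg15, Usp18, Ifit1, Oas2, Oas3, Rsad2, Cmpk2, Ifi44 and Tap1, 9 of the 37, control replicate 2 was highest and cKO replicate 1 second, an order found in 9.76% of all genes. Among these 9 the highest library was 1.28 to 2.97 times the lowest. This order was picked out after the values were seen and has no test. Control replicate 2 was the highest library for 16 of the 37 genes (34.0% of all genes) and the lowest for 13 (34.1% of all genes), so it was not uniformly high in interferon-stimulated genes. Its cell markers differed too: the 6 neutrophil precursor markers summed to 171612 normalized counts there against 342497 to 541980 in the other libraries, and the 6 erythroid markers to 49615 against 3069 to 18238, with none at 0. Their part in these values was not tested. Control replicate 1 was the highest for 3 of the 37 (23.1% of all genes) and for none of the antiviral class. cKO replicate 1 was the highest for 14, all of the antiviral class (27.6% of all genes), and cKO replicate 2 for 4 (15.3% of all genes). The 7 plasmacytoid dendritic cell markers, Bst2 left out, summed to 10071 and 10591 normalized counts in the control libraries and 16055 and 11136 in the cKO libraries. Their sum was thus also highest in cKO replicate 1. In 3 of the 7 both cKO libraries lay above both control libraries (19.2% of all genes), and in 1 both lay below (19.5%). None of the 7 was at 0. The part of these cells in the values of cKO replicate 1 was not tested.

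**Figure D4:**
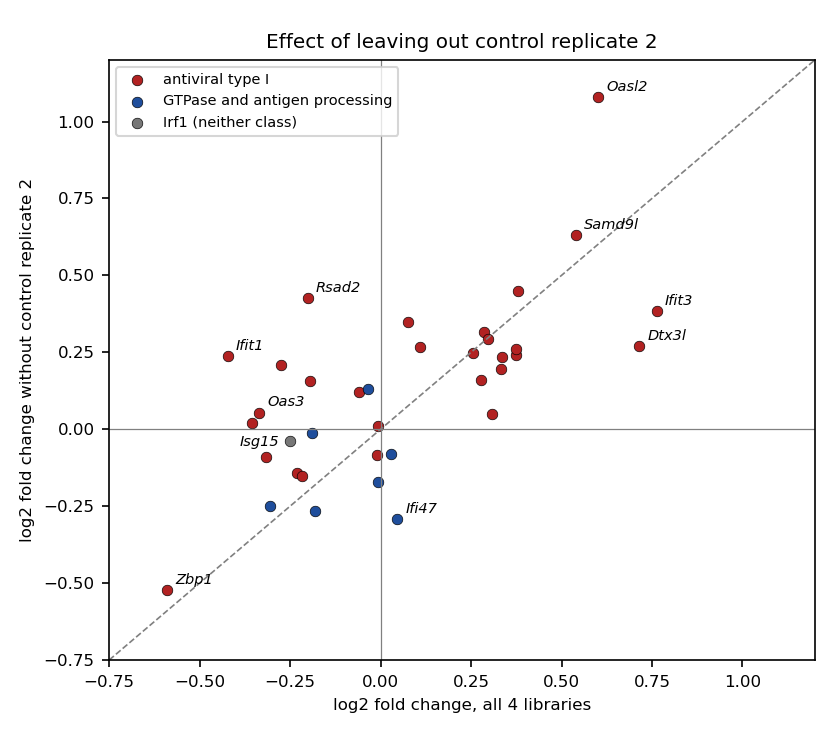
Each point is a gene, with its log2 fold change from all 4 libraries on the horizontal axis and without control replicate 2 on the vertical axis, and the dashed line marks equality. Ifit1 moves from -0.42 to 0.24 and Rsad2 from -0.20 to 0.43, while Ifit3 and Dtx3l move down to 0.38 and 0.27.

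Without control replicate 2, the median log2 fold change of the 37 genes was 0.16, beside -0.02 over all genes. The cKO libraries then lay above the remaining control library for 19 of the 37 (34.6% of all genes) and below it for 7 (36.9% of all genes). Still none was called by limma. The direction of Isg15, Ifit1, Oas2, Oas3, Rsad2, Cmpk2 and Ifi44 turned to 0.02, 0.24, 0.21, 0.05, 0.43, 0.12 and 0.16, so for these genes the sign depended on which mice were included. Leaving out cKO replicate 2 in place of control replicate 2 also turned Ifit1, Rsad2 and Ifi44, to 0.05, 0.20 and 0.13. Irgm1 turned to 0.13 and Irf9 to 0.01 without control replicate 2. Ifi47 and Psmb8 turned the other way without control replicate 2, to -0.29 and -0.08.

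Levels were also compared between genes, per kilobase of merged exons (GENCODE M21 gene models). Bst2 stood highest, at 4042 normalized counts per kilobase on average over the 4 libraries, above 97.8% of genes tested. Psmb8 (2883), Tap1 (1567), Psmb9 (1234) and Ifi47 (1086) followed, so that all 3 antigen-processing genes were among the 4 highest of the 37. Antiviral genes stood lowest, Ifi44 at 20.8, Ifit3 at 36.2, Oasl2 at 38.4, Oas2 at 47.1, Rsad2 at 50.8 and Ifit1 at 55.3 normalized counts per kilobase, beside a median of 169 over all genes. Of the 37, 25 lay above that median. The 4 widest intervals of the log2 fold change belonged to low genes, Ifit1, Oasl2, Ifit3 and Rsad2.

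Of 107 other symbols of the interferon pathway on a fixed list, 97 were in the table and tested. limma called 0 of them (0.0723% of all genes), with 12 at an unadjusted p under 0.05, 8 higher and 4 lower (6.1% of all genes). edgeR called 0 (0.0723% of all genes) and had 14 at an unadjusted p under 0.05 (6.13%). DESeq2 called 2, Gbp6 and Ifit1bl1 (0.702% of all genes), with 16 at an unadjusted p under 0.05 (7.24%). Their median log2 fold change was -0.02. In 25 of the 97 (25.8%) both cKO libraries lay above both control libraries (19.2% of all genes). In 21 (21.6%) both lay below (19.5% of all genes). With each tool the unadjusted count was a larger share than over all genes. These shares were not tested, and the list was chosen with earlier results of these data known.

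Upstream in the pathway, Ifng was the only ligand gene on the list that was in the table, at 14.8 and 13.6 normalized counts in the control libraries and 19.8 and 31.0 in the cKO libraries (log2 fold change 0.77, SE 0.76). The 12 markers of T and NK cells, which make this cytokine, summed to 9776 and 6854 against 11652 and 11176. In 10 of the 12 both cKO libraries lay above both control libraries (19.2% of all genes). Their part in the value of Ifng was not tested. The type I receptor chain Ifnar1 had 3031 and 2509 against 3848 and 3343 (0.38, SE 0.20), and the kinase gene Jak1 had 6799 and 5651 against 8705 and 7183 (0.35, SE 0.20). For both genes the cKO libraries lay above the controls. Irf4, a factor of lymphoid and dendritic cells, had 229 and 155 against 560 and 358 (1.25, SE 0.36), while Irf5, a factor of myeloid cells, had 4761 and 4122 against 2565 and 3553 (-0.55, SE 0.22). The 8 macrophage and monocyte markers summed to 84143 and 38001 against 52143 and 63519. In 3 of the 8 both cKO libraries lay below both control libraries (19.5% of all genes) and in 0 above (19.2%). Their part in the value of Irf5 was not tested. Of the inhibitors, Socs3 had 292 and 383 against 174 and 186 (-0.89, SE 0.32), and Irf2bp2 had 8516 and 7997 against 6528 and 6963 (-0.29, SE 0.18). Tlr9, which senses DNA in endosomes, had 474 and 248 against 667 and 619 (0.90, SE 0.35), and its adaptor gene Myd88 had 3068 and 2356 against 1741 and 2082 (-0.50, SE 0.22). For each of these genes the groups did not overlap, and limma's adjusted p was 0.81 for Ifng and 0.76 for the others. Apart from Ifng they were picked by smallest p, which favours such separation. Both cKO libraries lay above in 3 and below in 1 of 8 receptor and kinase genes (19.2% and 19.5% of all genes). The counts were 1 and 4 of 8 transcription factors, 1 and 2 of 5 inhibitors, and 2 and 3 of 13 sensing genes.

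Further antiviral and antigen-processing genes followed the same rule of smallest p. Ifit1bl1, which lies between Ifit3 and Ifit1, had 48.0 and 14.4 normalized counts in the control libraries and 180 and 152 in the cKO libraries (log2 fold change 2.60, SE 0.64; adjusted p 0.71 with limma and 0.0496 with DESeq2). Its lowest library, control replicate 2, was the highest of Ifit1, with which it may share reads. Ifi203, of a DNA-sensing family, had 3387 and 3382 against 6010 and 4686 (0.65, SE 0.20). Psmb10, the third immunoproteasome subunit, had 4911 and 5562 against 3256 and 3726 (-0.59, SE 0.19), and the proteasome activator gene Psme2 had 5447 and 5759 against 3948 and 4861 (-0.35, SE 0.19). Like Psmb9, these 2 genes had both cKO libraries below both control libraries, a separation that picking by smallest p favours. Of the 12 genes of their subgroup, 5 had both cKO libraries below (19.5% of all genes) and 0 above (19.2%).

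The guanylate-binding protein genes, GTPases of the interferon-gamma response, lie in separate groups on chromosomes 3 and 5. On chromosome 5, Gbp6 had 63.7 and 35.1 normalized counts in the control libraries and 295 and 175 in the cKO libraries (log2 fold change 2.24, SE 0.50; adjusted p 0.64 with limma, 0.65 with edgeR and 0.0081 with DESeq2). Its neighbour Gbp8 had 101 and 149 against 498 and 272 (1.58, SE 0.41; limma adjusted p 0.75). The other 2 listed genes of that group, Gbp4 (160 and 299 against 755 and 402) and Gbp9 (142 and 195 against 574 and 335), were named after their values were seen, as were Gbp10 and Gbp11, which the list does not hold. Gbp11 had 14.8 and 12.8 against 103 and 62.0, and Gbp10 had 1.85 and 6.38 against 16.3 and 29.9. In all 6 both cKO libraries lay above both control libraries, as in 19.2% of all genes. The same held for 10 of the 12 T and NK cell markers. It held for 3 of the 7 plasmacytoid dendritic cell markers, while in 1 of the 7 both cKO libraries lay below (19.5% of all genes). The sum of these 7 was highest in cKO replicate 1, as were Gbp4, Gbp6, Gbp8, Gbp9 and Gbp11. The part of these cells in the values was not tested. On chromosome 3, Gbp2 (log2 fold change -0.01), Gbp3 (-0.05) and Gbp7 (0.14) had overlapping groups, and Gbp5 had 597 and 373 against 801 and 717 (0.68, SE 0.29). The chromosome 5 genes are close copies between which reads can be split, so their single values are uncertain. A difference between the chromosome 3 and chromosome 5 genes was not tested.

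**Figure D5:**
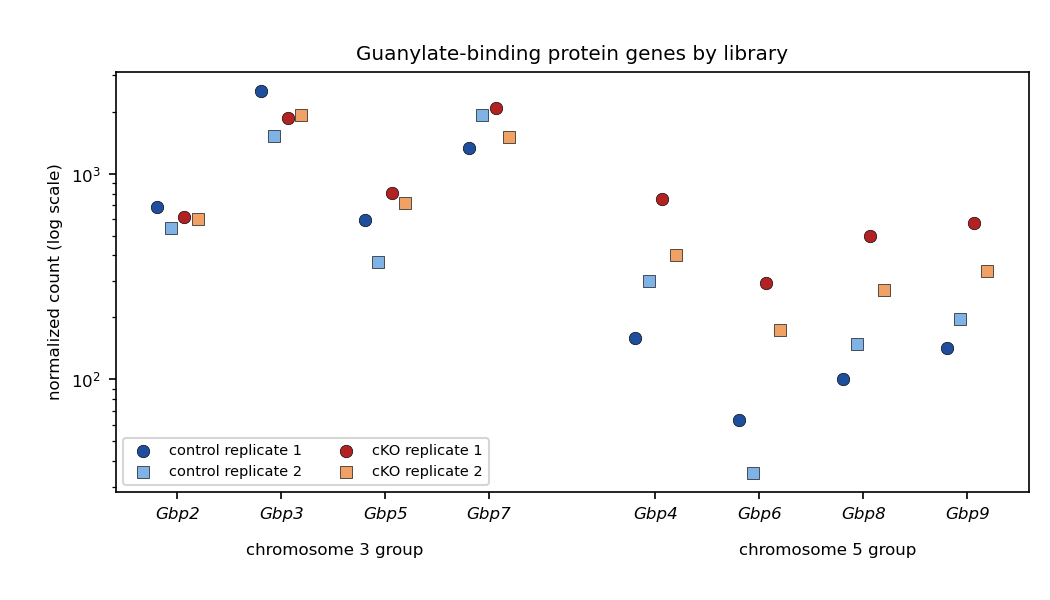
Normalized counts on a log axis, 1 point per library, for guanylate-binding protein genes of the chromosome 3 and chromosome 5 groups. The chromosome 5 genes have both cKO libraries above both control libraries, as in Gbp6 (63.7 and 35.1 against 295 and 175). So does Gbp5 of the chromosome 3 group (597 and 373 against 801 and 717), while Gbp2 lies between 547 and 687 in all 4 libraries.

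Motif content and direction were set side by side. The 13 genes with an ISRE match had a median log2 fold change of -0.03, with both cKO libraries above in 4 and below in 2 (19.2% and 19.5% of all genes). The 17 genes with a promoter and no match had a median of 0.03, with 5 above and 1 below. Control replicate 2 was the highest library for 6 of the 13 and for 6 of the 17. The 9 genes with a GAS match had a median of 0.03 and the 21 without one -0.01. No ISRE match was found in the promoter stretches of Dtx3l, Samd9l and Trim25, which had some of the smallest p-values of the 37, and this says only that these letters are not in those stretches. Promoters of Usp18, Dhx58, Zbp1, Oas2, Rtp4, Parp9 and Parp14 were not analysed here.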

How the data were processed

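RNA-seq libraries of Lin– bone marrow cells from 4 mice, 2 per genotype, were analysed from 1 table. Its deposited values are a normalized signal per gene: reads divided by the size factor of the library, per the file headers. Per the submitters' processing notes, the genome build was mm39 and the tools included STAR 2.7.9a, Trim Galore 0.6.7, DESeq2, SAMtools and featureCounts. The strand setting and annotation are not given in the sources used, so overlapping genes may share reads. The control columns carry a wild-type name and were matched to the control samples by group and number.

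All values (100%, within 0.1 read) were whole multiples of 1 read's value, and dividing by it gave 39199593, 46673855, 28845037 and 30020188 reads in control replicates 1 and 2 and cKO replicates 1 and 2. Each gene had at least 41 reads in total, so sparser genes may have been removed earlier.

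Differences were tested with limma 3.58.1 in R 4.3.3 on log2(normalized count + 1). The fit held 16598 genes whose mean reached 10, all 37 members among them, used empirical Bayes with a trend, and gave two-sided p-values, Benjamini-Hochberg adjusted and called under 0.05. Alternatives were pseudocounts of 0.5 and 10, no filter, a minimum mean of 50, TMM, quantile normalization, no trend, a replicate block, leaving out single libraries, and edgeR 4.0.16 or DESeq2 1.42.0 on the recovered reads, where edgeR called 12 genes and DESeq2 112. The steps were tested on simulated data. Members, classes and lists were chosen with earlier results of these data known. Every member is named, and of the other pathway genes the 2 of smallest p in each subgroup. Outside this rule, Ifit3b and Oas1g are given as close copies of members and Gbp3, Gbp4, Gbp5, Gbp7, Gbp9, Gbp10 and Gbp11 as relatives of Gbp2, chosen after their values were seen. Merged exon lengths were found for 97.1% of genes.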

Additional observations from a re-analysis of the deposited data

How the results depend on the processing

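None of the 37 genes was called under any alternative that kept all 4 libraries. Dtx3l passed the threshold only without control replicate 1, where 1 control library remained and the most genes over all were called higher. Over all genes, calls higher numbered 2 with quantile normalization, with a minimum mean of 50 and without a trend, 74 with DESeq2 and 3 with the replicate block, against 5, and 4 to 232 on leaving out single libraries, the most without control replicate 1. Calls lower numbered 38 with DESeq2, against 7, and 5 to 161 on leaving out libraries. Other pathway genes called numbered 2 of 97 with DESeq2 (0.702% of all genes). Single libraries left out moved the median log2 fold change to between -0.025 and 0.16 for all members, between 0.048 (without cKO replicate 1) and 0.24 (without control replicate 2) for the antiviral class, and between -0.17 and -0.032 for the GTPase and antigen-processing class. The class difference moved to between -0.41 and -0.079. Members with cKO libraries wholly above numbered 15 to 19 of the 37 (28.6% to 40.9% of all genes). Those wholly below numbered 7 to 17 (29.7% to 39.6% of all genes), with fewer libraries to overlap.

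Signs turned under other settings only for values near 0. Irf7 had 0.0065 with TMM, 0.0035 with quantile normalization and 0.0052 with edgeR, Irf9 had 0.0071, 0.017 and 0.0063, Gbp2 had 0.0073 with TMM and Usp18 -0.027 with quantile normalization. On leaving out single libraries, the log2 fold changes of 16 members crossed 0. Their ranges were -0.094 to 0.077 for Irf7, -0.039 to 0.023 for Irf9, -0.73 to 0.020 for Isg15, -0.20 to 0.35 for Usp18, -0.047 to 0.27 for Ifih1, -1.08 to 0.24 for Ifit1, -0.76 to 0.21 for Oas2, -0.72 to 0.054 for Oas3, -0.16 to 1.37 for Oasl2, -0.83 to 0.43 for Rsad2, -0.24 to 0.12 for Cmpk2, -0.55 to 0.16 for Ifi44, -0.29 to 0.38 for Ifi47, -0.20 to 0.13 for Irgm1, -0.17 to 0.16 for Gbp2 and -0.10 to 0.16 for Psmb8. The cause was not tested.

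Deviations of same-numbered libraries had a correlation of -0.07 over genes, and the replicate block called 0 members. With 2 libraries per group, these values cannot show whether the replicate numbers pair the mice. Ifit3 had the fewest reads, 44 to 72 per library.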
